A study of Mus musculus with 48 samples.

Results

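Small RNAs of a sensory ganglion, the trigeminal ganglion (TG), which serves the face, were compared with those of a sympathetic one, the superior cervical ganglion (SCG) of the neck, in mice that had received saline only. Members were taken from the labels: the 12 saline TG and the 12 saline SCG libraries, 24 of the 48 libraries of the study, in the table of microRNA (miRNA) counts and the table of tRNA fragment (tRF) counts. All mice were Balb/c, male and female, 2.5 months old, and had received 0.2 mL saline intraperitoneally. A sample was made from the 2 ganglia of 1 kind of a mouse, so that the libraries of a ganglion came from different mice. Each ganglion was represented by 4 libraries at 4 h, 4 at 24 h and 4 at 7 d, with 2 females and 2 males at each time. The other 24 libraries came from mice given lipopolysaccharide and entered no comparison other than a refit over all 48.

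The short miRNAs guide silencing proteins to messenger RNAs, mainly through the seed, bases 2 to 8 of the mature strand. Many are transcribed as clusters, and neurons, glia, blood cells, muscle and connective tissue each have characteristic members. The miR-183 cluster is known from sensory cells, and miR-218 from motor and autonomic neurons. Sensory neurons of the TG arise from cranial neural crest and placodes, sympathetic neurons of the SCG from neural crest farther back, and the miRNAs within the Hox clusters follow position along the body axis. Fragments of tRNAs form when nucleases cut mature tRNAs, often in the anticodon loop. They are named after the part kept: 5'-half and 3'-half for cuts in the loop, 5'-tRF and 3'-tRF for shorter or otherwise different ends, and i-tRF for inner pieces.

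Of the miRNAs with the largest differences at 100 CPM or more, those matched to RefSeq are shown first, so that later values can be tied to their seeds; miR-10b-5p is added because it shares its seed with miR-10a-5p. Levels are given as CPM, miRNA counts scaled by library size with edgeR's TMM factors. Sequences are from RefSeq (GRCm38.p6), 5′ to 3′, with the seed in capitals. The first set was higher in TG:
miR-183-5p: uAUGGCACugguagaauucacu
miR-96-5p: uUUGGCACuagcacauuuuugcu
miR-182-5p: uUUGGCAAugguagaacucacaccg
miR-216b-5p: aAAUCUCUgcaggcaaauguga
miR-217-5p: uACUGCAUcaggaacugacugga
miR-34a-5p: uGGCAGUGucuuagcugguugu
miR-128-3p: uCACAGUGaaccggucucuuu
miR-338-3p: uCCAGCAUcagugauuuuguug
miR-504-5p: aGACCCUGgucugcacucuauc
miR-200a-3p: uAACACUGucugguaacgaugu
The second set was higher in SCG:
miR-218-5p: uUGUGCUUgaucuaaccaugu
miR-7a-5p: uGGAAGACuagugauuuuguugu
miR-7b-5p: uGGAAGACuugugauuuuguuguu
miR-10a-5p: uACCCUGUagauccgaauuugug
miR-10b-5p: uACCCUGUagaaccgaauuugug
miR-615-3p: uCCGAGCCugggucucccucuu
miR-490-3p: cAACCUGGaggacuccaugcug
miR-323-3p: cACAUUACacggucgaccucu
miR-409-3p: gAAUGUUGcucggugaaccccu
miR-673-5p: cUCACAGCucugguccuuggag
miR-203-3p: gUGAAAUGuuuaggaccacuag
Within these, miR-7a-5p and miR-7b-5p share their seed and differ before the 3′ end by A10U, and miR-10a-5p and miR-10b-5p share theirs and differ by U12A, with positions counted from 1 at the 5′ end. The 3 mature strands of the miR-183 cluster have 3 different seeds.

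Total miRNA counts ran from 2936483 to 5166995 per TG library and from 1774047 to 5592766 per SCG library, and total tRF counts from 61218 to 429382 and from 74289 to 389251. The correlation of a library with the others of its ganglion (median Pearson's r of log2 CPM over miRNAs, a description) was 0.976 to 0.992 in TG and 0.944 to 0.990 in SCG. Some libraries stood apart in single miRNAs. SCG replicate 1 (4 h, female) held 87610.2 CPM of the muscle miRNA miR-1a-3p and 10003 CPM of the keratinocyte miRNA miR-203-3p, against SCG medians of 525 and 280. SCG replicates 3 (24 h, female) and 5 (7 d, female) held 13179 and 4585 CPM of miR-183-5p against an SCG median of 859. TG replicates 5, 6 (7 d, female) and 12 (7 d, male) held 22327, 21763 and 20199 CPM of the neuronal miR-9-5p against a TG median of 12345. These 6 libraries were left out in a refit chosen after seeing the data. They were picked by their levels of miR-1a-3p, miR-203-3p, miR-183-5p and miR-9-5p. Refit values of these miRNAs, and of others high in the same libraries, therefore follow in part from that choice. Such values are no independent support. Others that stood apart were kept: SCG replicate 2 held 20872 CPM of miR-1a-3p, and TG replicates 2, 9 and 11 held 959, 609.8 and 314 CPM of the epithelial miR-200a-3p against a TG median of 128. The part of other tissues in any result was not tested. In bulk RNA, fewer cells of a type and less RNA per cell cannot be told apart. All SCG libraries have lower library numbers than all TG libraries, so a step done in that order cannot be told apart from the ganglion. RNA yield differed too, with a mean of 193 ng/uL from TG against 64 ng/uL from SCG per the labels.

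The miRNA make-up of the 2 ganglia differed broadly. Of 471 miRNAs tested, 163 were higher in TG (34.6%) and 170 higher in SCG (36.1%), 333 in all (70.7%; edgeR quasi-likelihood test with time and sex as covariates, Benjamini-Hochberg adjusted p under 0.05). The median log2 fold change over all 471 was 0.01, with positive values higher in TG throughout. A difference beyond 2-fold was called for 32 miRNAs in TG (6.79%) and 48 in SCG (10.2%), and 96 miRNAs (20.4%) had no overlap between the 12 and 12 libraries. Without the 6 libraries the counts were 182 and 155, and 307 miRNAs were called in both fits (92.2% of the 333 and 91.1% of the 337 called without them). Beyond 2-fold they were 39 and 52, with 76 called in both fits (95% and 83.5%). Of the 24 miRNAs with the largest differences, 20 were called at each of the 3 times on its own. These 24 were picked from the same libraries, so the count is a description and no independent support. The share over all 471 miRNAs was not counted.

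**Figure D1:**
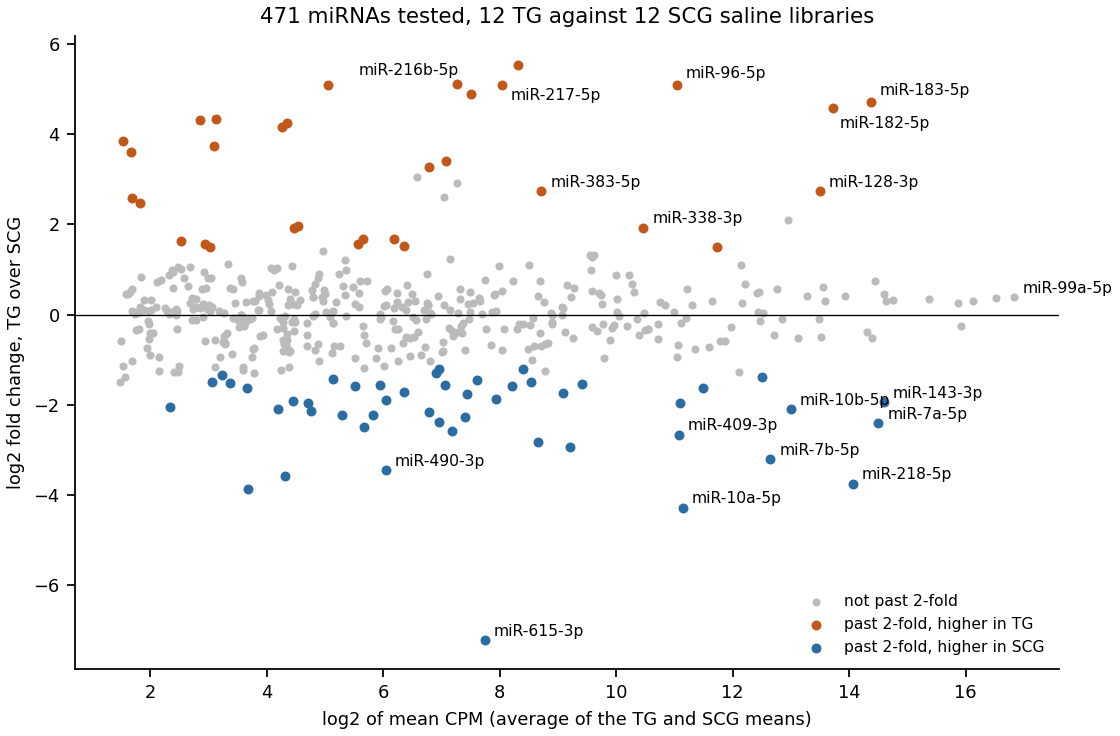
Log2 fold change of each of the 471 tested miRNAs, TG over SCG (vertical axis), against the log2 of the mean CPM (horizontal axis), 1 point a miRNA. Coloured points passed the test for a difference beyond 2-fold, 32 higher in TG and 48 higher in SCG, and abundant miRNAs such as miR-183-5p and miR-218-5p lie among them.

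The miR-183 cluster set TG apart at high levels. Its 3 hairpins are transcribed together and shape sensory neuron function. All 5 tested strands were higher in TG, each beyond 2-fold and without overlap (list median 4.58). Together they made up 6.78% ± 0.787 of miRNA counts in TG and 0.385% ± 0.615 in SCG. The lowest, median and highest CPM of miR-183-5p were 29011, 41449 and 50818 in TG and 403, 859 and 13179 in SCG (log2 fold change 4.73 ± 0.55, adjusted p = 1.79e-07). Every TG library lay above every SCG library, although SCG replicate 3 lay well above the other SCG libraries. For miR-182-5p they were 21324, 25878 and 30981 in TG and 382, 709.6 and 7591 in SCG (log2 fold change 4.58 ± 0.45, adjusted p = 1.49e-08). For miR-96-5p they were 3163, 4163 and 4902 in TG and 34.3, 56.7 and 916 in SCG (log2 fold change 5.10 ± 0.55, adjusted p = 5.22e-08). Leaving out the 6 libraries gave log2 fold changes of 5.83 ± 0.25 for miR-183-5p, 5.46 ± 0.18 for miR-182-5p and 6.30 ± 0.22 for miR-96-5p. The passenger strand miR-182-3p averaged 38.8 ± 10.1 CPM in TG and 2.04 ± 3.85 in SCG, and its log2 fold change moved from 4.24 ± 0.45 to 5.18 without these libraries.

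The neighbouring miR-216 and miR-217 hairpins, best known as abundant in the exocrine pancreas, were far higher in TG too. All 5 tested strands were higher in TG, beyond 2-fold, and 4 had no overlap (list median 5.08). The lowest, median and highest CPM of miR-217-5p were 355, 497 and 634 in TG and 2.37, 8.42 and 173 in SCG (log2 fold change 5.10 ± 0.61, adjusted p = 2.6e-07). For miR-216b-5p they were 228, 286 and 401 in TG and 1.78, 4.22 and 87.1 in SCG (log2 fold change 5.12 ± 0.58, adjusted p = 1.21e-07). SCG replicate 3 was again the highest SCG library for both, and without the 6 libraries their log2 fold changes were 6.34 ± 0.23 and 6.30 ± 0.31. The strands of miR-216a were lower in level: miR-216a-3p averaged 63.8 ± 13.2 CPM in TG and 2.34 ± 5.55 in SCG, and miR-216a-5p 16.7 ± 4.53 and 0.812 ± 1.47. Their log2 fold changes were 5.08 ± 0.56 and 4.34 ± 0.41, and 7.38 and 5.71 on leaving out the 6.

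The miR-34 family, whose miR-34a is a known target of p53, was split between the ganglia. miR-34a-5p was higher in TG, with a lowest, median and highest CPM of 264, 341 and 471 against 4.19, 7.38 and 77.5 in SCG (log2 fold change 4.89 ± 0.41, adjusted p = 8.43e-10), and no SCG library reached a TG library. With the 6 libraries left out its log2 fold change was 5.65 ± 0.19. miR-34c-5p, which comes from another locus shared with miR-34b, was higher in SCG without overlap, with 26.4, 33.9 and 86.8 CPM in TG and 213, 256 and 276 in SCG (log2 fold change -2.59 ± 0.17, adjusted p = 7.36e-12). miR-34b-3p moved the same way as miR-34c-5p (log2 fold change -1.52 ± 0.24, adjusted p = 6.28e-06). These were the 3 tested members of the family.

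Further miRNAs above 100 CPM were higher in TG beyond 2-fold. miR-128-3p, a brain-enriched miRNA that limits neuronal excitability, had a lowest, median and highest CPM of 12674, 17120.3 and 32649 in TG and 1924, 2437 and 6632 in SCG (log2 fold change 2.73 ± 0.19, adjusted p = 2.46e-11). The 3 TG libraries with high miR-9-5p were also the 3 highest for miR-128-3p, at 30598, 32649 and 29238 CPM; without the 6 libraries the log2 fold change was 2.93 ± 0.09. miR-383-5p ran from 594 to 859 CPM in TG and from 75.8 to 242 in SCG (log2 fold change 2.74 ± 0.15, adjusted p = 2e-13). miR-504-5p ran from 165 to 262 CPM in TG and from 8.63 to 76.5 in SCG (log2 fold change 3.27 ± 0.25, adjusted p = 1.4e-10). None of these 3 had any overlap between ganglia.

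Of the 4 tested strands on the glial list, 3 were higher in TG, all beyond 2-fold. miR-338-3p, a miRNA of myelinating glia, had a lowest, median and highest CPM of 1599.9, 2305 and 2530.1 in TG and 460.2, 572 and 923 in SCG (log2 fold change 1.92 ± 0.10, adjusted p = 1.74e-13), and miR-338-5p was higher without overlap too (log2 fold change 1.51 ± 0.10, adjusted p = 5.91e-12). miR-219a-2-3p, a strand of the miR-219 family known from oligodendrocyte maturation in the brain, varied most. It had 17.6, 529.5 and 1793 CPM in TG and 1.09, 4.6 and 183 in SCG (log2 fold change 5.54 ± 0.76, adjusted p = 1.75e-06). TG replicates 5 and 6 were the highest at 1529 and 1793 CPM, TG replicate 1 the lowest at 17.6, and SCG replicate 5 stood above all other SCG libraries at 183. Leaving out SCG replicate 5 alone gave a log2 fold change of 6.41. The fourth strand, miR-219a-1-3p, averaged 5.68 ± 1.7 CPM in TG and 5.21 ± 1.83 in SCG and was not called.

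In SCG, miR-218-5p, a miRNA of the Slit gene introns known from motor and autonomic neurons, differed by much the same amount at each time. Its lowest, median and highest CPM were 2112, 2399.8 and 2577 in TG and 25419, 33172 and 36256 in SCG (log2 fold change -3.75 ± 0.06, adjusted p = 1.37e-23), a mean 13.5 times as high in SCG by the fit. The values within single times ran from -3.83 to -3.62 on the log2 scale. It was the only tested strand of its hairpins. Leaving out the 6 libraries gave -3.71 ± 0.06.

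The miR-7 family, known from neuroendocrine and catecholamine cells, was higher in SCG for 2 of its 3 tested strands, both beyond 2-fold and without overlap. For miR-7a-5p the lowest, median and highest CPM were 3782, 4989.7 and 23693 in TG and 34346, 38396 and 42848 in SCG (log2 fold change -2.40 ± 0.26, adjusted p = 5.26e-08). TG replicate 12 was the highest TG library at 23693 CPM. For miR-7b-5p they were 354, 529.9 and 5276 in TG and 9484, 11198 and 13154 in SCG (log2 fold change -3.20 ± 0.46, adjusted p = 3.56e-06). The highest TG library for miR-7b-5p was replicate 6, at 5276 CPM, which also held 3765 CPM of miR-375-3p, a miRNA of endocrine cells, against a TG median of 136; with the 6 libraries left out, the log2 fold change of miR-7b-5p was -3.86 ± 0.44. Reads shared by the near-identical miR-7a-5p and miR-7b-5p could have been split between them in the counting. The third strand, miR-7a-1-3p, averaged 4.49 ± 1.38 CPM in TG and 4.09 ± 1.64 in SCG and was not called.

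All 5 tested strands from the Hox clusters, whose genes pattern the body axis, were higher in SCG beyond 2-fold and without overlap (list median -3.87). miR-615-3p, which lies within a Hoxc gene, had the largest log2 difference of all tested miRNAs: 0.252, 0.794 and 47.2 CPM in TG and 302, 417 and 516 in SCG (log2 fold change -7.22 ± 0.77, adjusted p = 5.26e-08). Most TG libraries held about 1 CPM or less, while TG replicates 5 and 6 held 38.7 and 47.2. For miR-10a-5p the lowest, median and highest CPM were 120, 155 and 848 in TG and 3556, 4192 and 5004 in SCG (log2 fold change -4.29 ± 0.28, adjusted p = 9.17e-12), and the same 2 TG libraries were highest. For miR-10b-5p they were 2218, 3124 and 3430.3 in TG and 11587, 13158 and 14949 in SCG (log2 fold change -2.09 ± 0.06, adjusted p = 1.36e-18), and miR-10b-3p differed likewise (log2 fold change -2.49 ± 0.08, adjusted p = 4.35e-18). On leaving out the 6 libraries, the log2 fold change was -8.59 ± 0.32 for miR-615-3p and -4.68 ± 0.09 for miR-10a-5p.

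**Figure D2:**
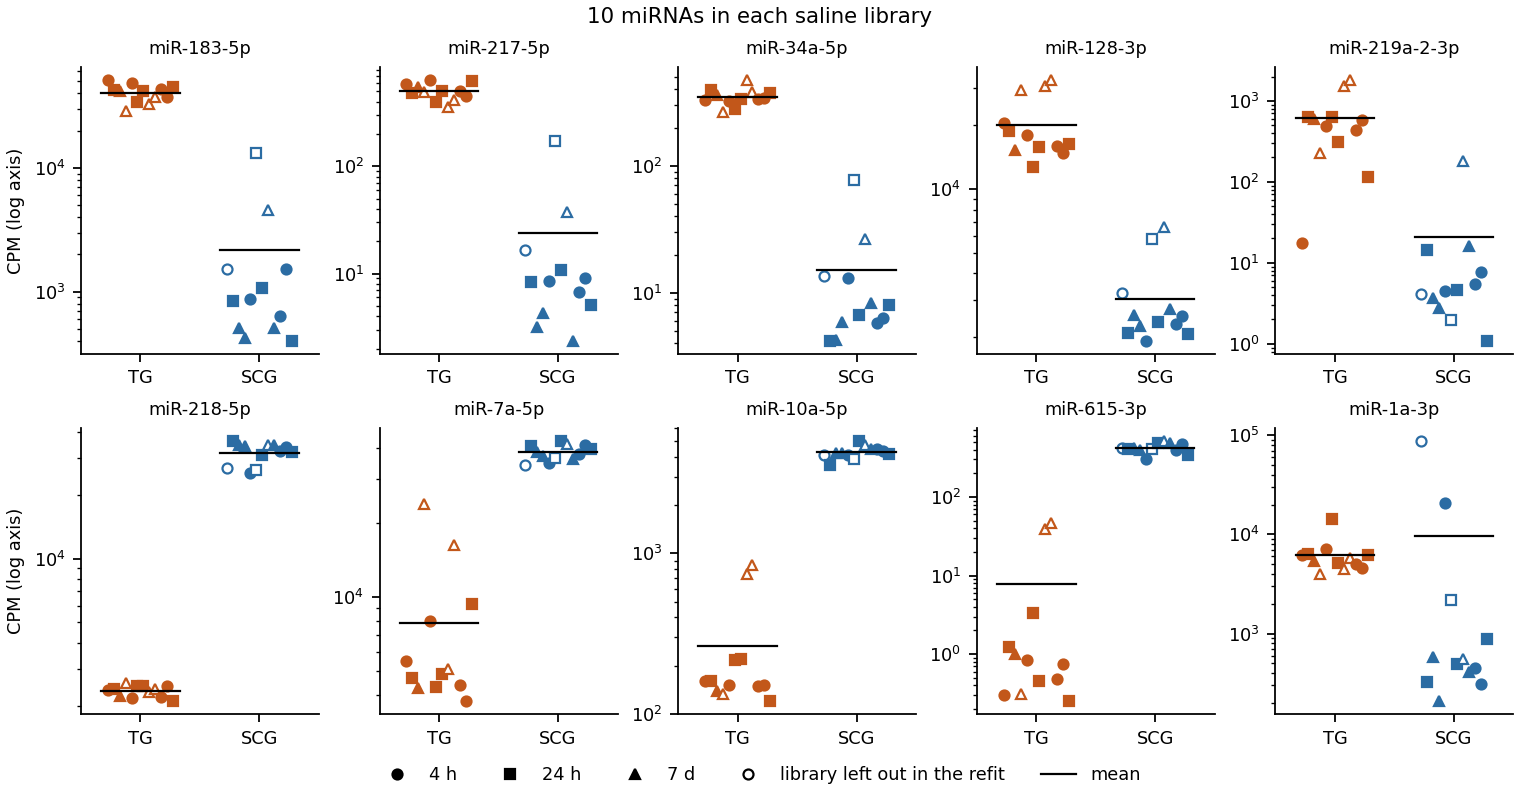
CPM of 10 miRNAs (vertical axes, log scale) in each of the 12 TG and 12 SCG saline libraries, with the symbol giving the time, open symbols the 6 libraries left out in the refit, and lines the means. The ganglia do not overlap for miR-183-5p, miR-217-5p, miR-34a-5p, miR-128-3p, miR-218-5p, miR-7a-5p, miR-10a-5p and miR-615-3p, while they do for miR-219a-2-3p and miR-1a-3p.

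The largest group higher in SCG came from the imprinted Dlk1-Dio3 region, a maternally expressed array of miRNA genes active in neurons. Of the 73 tested strands on its list, 60 were higher in SCG and 3 in TG, and 19 were higher in SCG beyond 2-fold (list median -0.80, against 0.01 over all tested miRNAs). In the refit without the 6, 56 of 72 were higher in SCG and 4 in TG. The strands together made up 3.86% ± 0.536 of miRNA counts in TG and 6.79% ± 0.886 in SCG. miR-323-3p had a lowest, median and highest CPM of 82.7, 95.3 and 135 in TG and 506, 727 and 879.7 in SCG (log2 fold change -2.83 ± 0.09, adjusted p = 4.08e-18). miR-409-3p had 518, 568 and 799 CPM in TG and 2618, 3824 and 4369 in SCG (log2 fold change -2.66 ± 0.09, adjusted p = 2.5e-17). miR-673-5p averaged 39.4 ± 4.47 CPM in TG and 209 ± 52.5 in SCG, again without overlap (log2 fold change -2.39 ± 0.11, adjusted p = 1.42e-14).

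The difference was uneven along the array. Of its most abundant strands, miR-541-5p differed by -1.39 ± 0.07 at an adjusted p of 9.35e-14 on the log2 scale, miR-127-3p by -0.51 ± 0.06 at an adjusted p of 7.8e-08 and miR-379-5p by -0.28 ± 0.06 at an adjusted p of 0.00046. For miR-434-5p the log2 difference was -0.09 ± 0.07 and was not called (adjusted p = 0.216). The call of miR-379-5p was lost with no filter (-0.16, adjusted p = 0.121) and in the fit over all 48 libraries (-0.24, adjusted p = 0.167), and with no scaling factor miR-434-5p was called (-0.18, adjusted p = 0.0324). The 3 strands on the list that were higher in TG were miR-299a-3p, miR-299a-5p and miR-379-3p, named after their values were seen, with log2 fold changes of 0.62, 0.58 and 0.21. miR-3070-2-3p, which lies in the array but is not on the list, was also higher in TG (0.60 ± 0.21 at an adjusted p of 0.014).

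Of further miRNAs higher in SCG, miR-490-3p, hosted by a muscarinic receptor gene, ran from 7.04 to 20.2 CPM in TG and from 55.8 to 152 in SCG (log2 fold change -3.45 ± 0.18, adjusted p = 7.7e-14). miR-6540-5p averaged 57.8 ± 9.47 CPM in TG and 281 ± 44.9 in SCG (log2 fold change -2.28 ± 0.10, adjusted p = 2.14e-15). miR-203-3p had 39.5, 63.3 and 94.7 CPM in TG and 182, 280 and 10003 in SCG without overlap (log2 fold change -2.94 ± 0.61, adjusted p = 0.000257), and without the 6 libraries, SCG replicate 1 among them, -2.18 ± 0.25. miR-143-3p, the leading miRNA of smooth muscle and fibroblasts and named for its abundance, had 6256, 8287 and 21639 CPM in TG and 18700.1, 34162 and 85778 in SCG, with overlap (log2 fold change -1.94 ± 0.27, adjusted p = 1.6e-06).

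Of the 10 most abundant miRNAs of each ganglion, 6 were shared, and none of these was called beyond 2-fold. miR-99a-5p led both, with 132476 ± 14158 CPM in TG and 101036 ± 11929 in SCG (log2 fold change 0.39 ± 0.07, adjusted p = 5.45e-05), followed by miR-26a-5p with 105949 ± 9599 and 81760.3 ± 8036 (log2 fold change 0.38 ± 0.06, adjusted p = 4.43e-06). miR-183-5p, miR-27b-3p, let-7g-5p and miR-30d-5p stood among the 10 most abundant in TG but not in SCG. miR-143-3p, miR-7a-5p, miR-218-5p and miR-24-3p did so in SCG but not in TG. Let-7 members, which restrain growth and are high in mature cells, went both ways: let-7f-5p, let-7i-5p, let-7a-5p and let-7g-5p were higher in TG (log2 fold changes 0.29, 0.26, 0.34 and 0.33), and let-7c-5p was higher in SCG (-0.25). The refit without the 6 did not call let-7c-5p (-0.05 ± 0.06), nor did the fit with no filter (-0.12, adjusted p = 0.194). These differ by few bases, so the counting could have split reads among them.

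Summed by seed (RefSeq mature strands, with unmatched strands left out), 116 of 343 seed families were higher in TG (33.8%) and 134 in SCG (39.1%). The let-7 seed GAGGUAG held the most counts, 335750 ± 22242 CPM in TG and 302180 ± 24892 in SCG, with a log2 difference of 0.15 ± 0.05 at an adjusted p of 0.00567 that turned to -0.0038 with no scaling factor. The seed ACCCGUA of miR-99 and miR-100 followed (0.40 ± 0.06 at an adjusted p of 6.32e-06), then UCAAGUA of miR-26 (0.40 ± 0.06 at an adjusted p of 3.39e-06). The seeds that changed most among the abundant ones were AUGGCAC of miR-183 (4.77 ± 0.55 at an adjusted p of 1.32e-07), UUGGCAA of miR-182 (4.61 ± 0.45 at an adjusted p of 1.16e-08), CACAGUG of miR-128 (2.76 ± 0.18 at an adjusted p of 9.12e-12), UGUGCUU of miR-218 (-3.73 ± 0.05 at an adjusted p of 5.2e-25) and GGAAGAC of miR-7 (-2.53 ± 0.29 at an adjusted p of 1.31e-07). The other abundant seeds of matched strands moved by less: CAGUGCA 0.72, GUAAACA of miR-30 0.42, UCACAGU of miR-27 0.28, CCCUGAG of miR-125 0.21, GGCUCAG of miR-24 -0.49 and CGUACCG of miR-126 -0.37 on the log2 scale, all called. The abundant miR-30d-5p and miR-143-3p were not matched, so GUAAACA lacks miR-30d-5p and the seed of miR-143-3p is not given. Matched strands held 92.1% of miRNA counts. The call of CCCUGAG was lost with no scaling factor (0.05, adjusted p = 0.476), and that of CGUACCG with no filter (-0.26, adjusted p = 0.109). Leaving out the 6 libraries gave 5.85 for AUGGCAC and 5.47 for UUGGCAA.

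Members that share a seed did not always move together. Seeds were known for 409 of the 471 tested miRNAs, so families such as miR-30 and miR-34 are incomplete here. Of 38 seeds with at least 2 tested strands of known seed, 23 had at least 2 called, and in 9 of these the called strands went in both directions. In the miR-181 family, miR-181a-5p and miR-181b-5p were higher in TG (0.69 ± 0.10 at an adjusted p of 1.5e-06 and 0.87 ± 0.08 at an adjusted p of 1.09e-09), while miR-181d-5p was higher in SCG (-0.64 ± 0.07 at an adjusted p of 1.36e-08); the last 2 had no overlap. miR-27b-3p was higher in TG (0.47 ± 0.05 at an adjusted p of 2.93e-08) and miR-27a-3p in SCG (-0.45 ± 0.07 at an adjusted p of 3.76e-06). miR-146b-5p was higher in TG (0.57 ± 0.09 at an adjusted p of 6.17e-06) and miR-146a-5p in SCG (-0.54 ± 0.11 at an adjusted p of 0.000163). Genome neighbours were grouped too. Of 29 groups of hairpins within 10000 bases of each other with at least 2 called strands, 15 had calls in TG alone, 8 in SCG alone and 6 in both directions. The largest of these 6 had 39 of 48 strands higher in SCG and 3 in TG. The groups are not separate: strands with several loci, such as miR-16-5p, miR-24-3p and miR-181a-5p, count in more than 1 group. Called strands of a group can be arms of the same hairpin. The seed and neighbour groups overlap in members, and the difference between their shares was not tested.

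For other families the counts stand beside the shares over all tested miRNAs, 34.6% higher in TG and 36.1% in SCG, 70.7% in all. The share called on the miR-99/100 and miR-125 list, and the share of the miR-17-92 paralogs higher in TG, lay near these. Of the 11 strands of the miR-30 family, 10 were higher in TG, none beyond 2-fold; miR-30c-5p, miR-30a-5p, miR-30d-5p and miR-30e-5p differed by 0.49, 0.41, 0.31 and 0.22, and with no scaling factor miR-30e-5p was not called (0.14, adjusted p = 0.0757). Both strands of the miR-204 list were higher in TG without overlap, with 6190.1 ± 1038 CPM of miR-204-5p in TG and 2894 ± 569 in SCG (log2 fold change 1.10 ± 0.12, adjusted p = 2.93e-08), and a log2 fold change of 1.24 for miR-204-3p. The miR-181 list had 4 of 7 higher in TG and 2 in SCG, with miR-181a-2-3p higher in TG beyond 2-fold and without overlap (1.67 ± 0.12 at an adjusted p of 2.46e-11). On the miR-99/100 and miR-125 list, 5 of 10 were higher in TG and 2 in SCG, with miR-100-5p at 0.57 ± 0.10 at an adjusted p of 4.98e-05 and miR-125b-5p at 0.41 ± 0.07 at an adjusted p of 2.59e-05; miR-125a-5p was not called (-0.10 ± 0.09). The let-7 list had 11 of 19 higher in TG and 3 in SCG. Of the miR-17-92 paralogs, 6 of 15 were higher in TG, led in level by miR-25-3p (0.87 ± 0.09 at an adjusted p of 1.49e-08), and 2 in SCG, while without the 6 libraries 7 of 14 were higher in TG and 0 in SCG. Of its other abundant strands, miR-106b-3p was higher in TG (0.45), miR-363-3p in SCG (-0.40) and miR-92a-3p was not called (0.07 ± 0.09). On the miR-23/24/27 list, 3 of 10 were higher in TG and 6 in SCG, where miR-24-3p differed by -0.51 ± 0.07 at an adjusted p of 3.6e-07, while miR-23b-3p was higher in TG (0.34), a call that was lost with no scaling factor (0.26, adjusted p = 0.0537). On the miR-29 list 0 of 6 were higher in TG and 2 in SCG, and on the miR-221 and miR-222 list 0 of 3 and 1; these were miR-29c-3p (-0.26), miR-29b-2-5p (-0.25; named after its value was seen) and miR-222-3p (-0.32). The strands miR-29a-3p (0.06 ± 0.04), miR-29b-3p (-0.31 ± 0.23), miR-29c-5p (-0.04 ± 0.09), miR-221-3p (-0.29 ± 0.16) and miR-221-5p (-0.07 ± 0.16) were not called. Small differences such as these moved with the libraries kept: leaving out the 6 ended the calls of miR-29c-3p (-0.13 ± 0.07) and miR-363-3p (-0.19 ± 0.09), and gave calls for miR-29a-3p (0.15 ± 0.05), miR-92a-3p (0.21 ± 0.07) and miR-221-3p (-0.31 ± 0.12). With no filter, miR-29c-3p (-0.14, adjusted p = 0.48) and miR-363-3p (-0.27, adjusted p = 0.0652) were not called either, and miR-363-3p was not in the fit over all 48 libraries (-0.35, adjusted p = 0.281). miR-29a-3p was called with DESeq2 size factors (0.10, adjusted p = 0.0297), by the DESeq2 test (0.10, adjusted p = 0.00843) and over all 48 libraries (0.10, adjusted p = 0.0398). The call of miR-222-3p was lost with DESeq2 size factors (-0.28, adjusted p = 0.0692), by the DESeq2 test (-0.28, adjusted p = 0.0634), with no filter (-0.20, adjusted p = 0.217) and on leaving out any 1 of SCG replicates 1, 4, 5, 6 or 9 or of TG replicates 1, 2, 3, 5, 6, 7, 8, 9, 10 or 11.

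The neuronal list was split, with 10 of its 16 tested strands higher in TG and 6 in SCG, 3 beyond 2-fold in each. Over all tested miRNAs, 34.6% were higher in TG and 36.1% in SCG, with 6.79% and 10.2% beyond 2-fold. The neuronal share called higher in SCG, and both shares of the inflammation list below, lay near the first 2 of these. The miRNA miR-9-5p, which is expressed in neural progenitors and neurons, had a lowest, median and highest CPM of 11418, 12345 and 22327 in TG and 6542, 9151 and 12414 in SCG (log2 fold change 0.62 ± 0.10, adjusted p = 6.3e-06). miR-138-5p differed less (log2 fold change 0.24 ± 0.07, adjusted p = 0.00379): it was called at 1 of the 3 times on its own, and not with no scaling factor (0.15, adjusted p = 0.0679) or over all 48 libraries (0.28, adjusted p = 0.348). The strand miR-129-5p, which is linked to neuronal excitability, was higher in SCG (log2 fold change -0.73 ± 0.10, adjusted p = 1.49e-06). The activity-induced miR-132 list had 0 of 3 called in the 24 libraries (miR-132-3p 0.01 ± 0.34, miR-132-5p -0.19 ± 0.23, miR-212-5p -0.61 ± 0.28, adjusted p 0.979, 0.491 and 0.059), but 3 of 3 were higher in SCG without the 6 libraries, with a median log2 fold change of -0.48. miR-212-5p was also called with time as the sole covariate (-0.63, adjusted p = 0.0485) and with no scaling factor (-0.69, adjusted p = 0.047). The inflammation list had 2 of 5 higher in TG and 2 in SCG: miR-155-5p averaged 7.95 ± 2.28 CPM in TG and 19.5 ± 4.54 in SCG (log2 fold change -1.29 ± 0.16, adjusted p = 1.72e-07), and miR-21a-5p was not called (-0.15 ± 0.11).

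Lists for the cells that surround neurons are read against the same shares over all miRNAs, and their part in the other results was not tested. All 7 tested erythroid strands were higher in TG (list median 1.33), with 281, 953 and 3225 CPM of the red cell miR-451a in TG and 222, 421 and 745 in SCG (log2 fold change 1.28 ± 0.30, adjusted p = 0.000731), and miR-486a-3p had no overlap (log2 fold change 1.67 ± 0.16, adjusted p = 5.3e-09). The near-identical miR-486a-5p and miR-486b-5p, between which reads could be split, differed by 1.33 and 1.32. The erythroid list summed to 0.332% ± 0.166 of miRNA counts in TG and 0.143% ± 0.0617 in SCG. On the mesenchyme and smooth muscle list 6 of 10 were higher in SCG and none in TG, 4 beyond 2-fold; miR-145a-3p, the cluster partner of miR-143, differed by -1.75 ± 0.21 at an adjusted p of 2.31e-07, and miR-199a-3p and miR-199b-3p, which share their sequence, were not called (-0.33 ± 0.21 each). The list summed to 1.3% ± 0.504 of miRNA counts in TG and 4.48% ± 2.11 in SCG, and 4 of 10 were called without the 6 libraries. Both endothelial strands were higher in SCG, with miR-126a-3p at -0.39 ± 0.10 at an adjusted p of 0.00202, a call that was lost with no filter (-0.27, adjusted p = 0.0551), and miR-126a-5p at -0.51. On the leukocyte list 2 of 8 were higher in TG and 2 in SCG, among them miR-150-5p (0.57 ± 0.17 at an adjusted p of 0.00539) and miR-342-5p (-0.90 ± 0.18 at an adjusted p of 9.15e-05), and miR-142a-5p (-0.09 ± 0.16) and miR-342-3p (-0.15 ± 0.10) were not called. Without the 6, 1 and 1 of 7 were called, and in both fits the share called on this list was below that over all miRNAs. On the mesenchyme list the share called in either direction was below it too.

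Single libraries carried much of the spread of muscle and epithelial miRNAs. miR-1a-3p had a lowest, median and highest CPM of 3987, 5573 and 14199 in TG and 208, 525 and 87610.2 in SCG, where replicates 1 and 2 reached 87610.2 and 20872 (log2 fold change 2.09 ± 0.95, adjusted p = 0.0545). On the muscle list 1 of 5 was called, miR-133a-3p (log2 fold change 2.60 ± 1.06, adjusted p = 0.0346), against 3 of 5 without the 6 libraries, all higher in TG. Neither miR-133b-3p (1.05 ± 0.84) nor miR-206-3p (0.75 ± 1.69) was called. In the refit without the 6, miR-1a-3p (2.50 ± 0.84) and miR-133b-3p (2.43 ± 0.67) were called, and miR-133a-3p was at 3.23 ± 0.77. The DESeq2 test and the fit over all 48 libraries also called miR-1a-3p (2.14, adjusted p = 0.00196; 1.65, adjusted p = 0.0194) and miR-133b-3p (2.32, adjusted p = 0.00964; 2.10, adjusted p = 0.0138). The call of miR-133a-3p was lost with time as the sole covariate (2.31, adjusted p = 0.0821), with no filter (2.69, adjusted p = 0.076) and on leaving out any 1 of SCG replicates 3, 4, 5, 6, 9, 10, 11 or 12 or of TG replicate 3. Leaving out SCG replicate 1 alone gave calls of miR-1a-3p and miR-133b-3p, and leaving out any 1 of TG replicates 1, 2, 7 and 8 a call of miR-1a-3p. On the epithelium and pituitary list, 3 of 5 were higher in TG and 1, miR-203-3p, in SCG. miR-200a-3p had 15.5, 128 and 959 CPM in TG and 1.66, 7.73 and 453 in SCG (log2 fold change 3.41 ± 0.99, adjusted p = 0.00434), with TG replicates 2, 9 and 11 highest and SCG replicate 1 at 453 CPM, and miR-200b-3p followed it (log2 fold change 2.92 ± 1.02, adjusted p = 0.0151), a call that was lost without TG replicate 9 (1.82, adjusted p = 0.0757). Without that library miR-200a-3p was at 2.47, without SCG replicate 1 miR-200a-3p and miR-200b-3p were at 4.41 and 3.99, and with the 6 libraries left out at 4.68 ± 0.95 and 4.08. miR-375-3p was not called (0.74 ± 0.75, adjusted p = 0.4). The liver and gut list had 2 of 3 higher in TG by small amounts, with miR-192-5p at 0.28 ± 0.05 at an adjusted p of 5.69e-05 and miR-194-5p at 0.26, and miR-122-5p was not called (0.28 ± 0.24), but was higher in TG without the 6 libraries (0.83 ± 0.10) and without SCG replicate 1 alone.

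**Figure D3:**
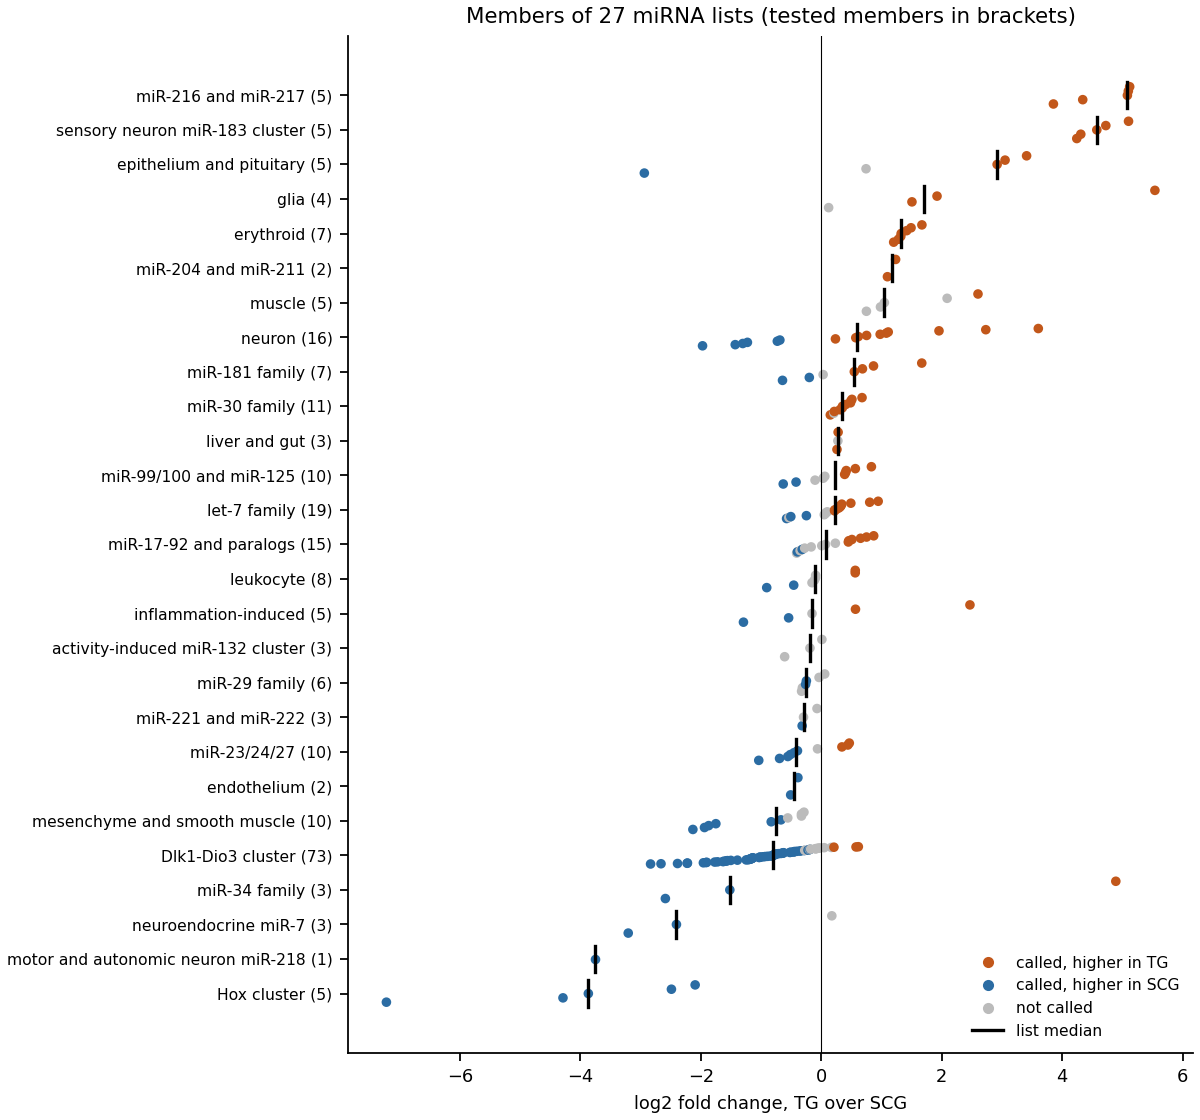
Log2 fold change, TG over SCG (horizontal axis), of the tested members of 27 miRNA lists (rows, ordered by list median), 1 point a strand, coloured where called and grey where not, with a bar at the list median. The miR-216 and miR-217 list and the miR-183 cluster lie farthest to the right, the Hox list, miR-218 and miR-7 farthest to the left, and the miR-34 list holds points on both sides.

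Both strands of a hairpin were compared by the log2 ratio of 5p over 3p counts (limma, 0.5 added to each count). Of 131 hairpins, the ratio was higher in TG for 20 (15.3%) and in SCG for 31 (23.7%). The largest shifts with both arms at 20 CPM or more included 4 from the Dlk1-Dio3 region. That region is a large part of what was tested, with 73 of the 471 strands on its list. Its share of the 131 hairpins was not counted, so the 4 are a description. The ratio of miR-673 was 1.37 ± 0.34 in TG and 2.94 ± 0.31 in SCG (difference -1.57 ± 0.13 SE, adjusted p = 3.24e-09). That of miR-376b was 1.74 ± 0.23 in TG and 0.39 ± 0.27 in SCG (difference 1.35 ± 0.09 SE, adjusted p = 6.03e-11). The ratio of miR-485 was 1.76 ± 0.19 in TG and 0.80 ± 0.20 in SCG (difference 0.96 ± 0.09 SE, adjusted p = 1.34e-08). That of miR-409 was -2.92 ± 0.15 in TG and -3.80 ± 0.28 in SCG (difference 0.88 ± 0.09 SE, adjusted p = 3.46e-08). These 4 were the hairpins without overlap between ganglia (3.05%), and the 5p arm weighed more in SCG for miR-673 and less for the other 3. miR-23b and miR-335 shifted the same way as miR-673 (differences -1.03 ± 0.26 SE and -0.74 ± 0.19 SE), with overlap.

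Whether the difference between ganglia varied with time or sex was tested by interaction terms. An interaction of ganglion with time was called for 1 miRNA of 471 (0.212%; edgeR, with 77 at an unadjusted p under 0.05). This was miR-129-2-3p (adjusted p = 0.0264). In TG it had 21.6, 16.6, 13.8 and 36.8 CPM at 4 h, 28.6, 22.1, 14.1 and 20.5 at 24 h, and 54.3, 54.4, 23.9 and 49.7 at 7 d. In SCG it had 60, 44.9, 52.6 and 57.6 CPM at 4 h, 50, 58, 71.9 and 56.3 at 24 h, and 20.7, 19.5, 38.9 and 29 at 7 d. The 3 high TG values at 7 d are those of replicates 5, 6 and 12. Leaving out the 6 libraries keeps replicate 11 as the sole TG library at 7 d, so that refit cannot decide on this interaction. Leaving out 1 library at a time gave 0 to 41 called, the 41 without TG replicate 11. Without that library, TG at 7 d is represented by replicates 5, 6 and 12 alone. An interaction with sex was called for 0 of 471 miRNAs (0%; 71 at an unadjusted p under 0.05, smallest adjusted p 0.0672). For tRFs, 0 of 353 were called for time (4 at an unadjusted p under 0.05) and 0 for sex (23).

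The tRNA fragments formed a smaller share of the counts in TG. The log2 ratio of total tRF to total miRNA counts was -4.75 ± 0.66 in TG and -3.77 ± 0.66 in SCG (SD, n = 12 each; two-sided permutation test, p = 0.00218). Of 353 tRFs tested, 99 were higher in TG (28%) and 75 in SCG (21.2%), 174 in all (49.3%), within the tRF counts. Beyond 2-fold, 71 differed (20.1%), 48 higher in TG (13.6%) and 23 in SCG (6.52%), and 23 had no overlap (6.52%). With no scaling factor the split was 148 against 40, and with DESeq2 size factors 88 against 89. The median log2 fold change of all tRFs was 0.08 under TMM and moved by 0.53 with no scaling factor and by -0.11 with DESeq2 size factors. In the refit without the 6, 92 and 70 were called, and 143 in both fits (82.2% of the 174 and 88.3% of the 162).

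The fragment sequences on which the tRF results turn are shown next. They are from the deposited annotation, which names types and parents by human tRNAs. The 3 fragments shown of HisGTG start at the extra G that is added before base 1 of this tRNA, with capitals from base 34 of the fragment on:
tRF-34-6SXMSL73VL4YHE: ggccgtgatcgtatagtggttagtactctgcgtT
tRF-35-6SXMSL73VL4YMY: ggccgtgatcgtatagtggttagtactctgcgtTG
tRF-36-6SXMSL73VL4YMYE: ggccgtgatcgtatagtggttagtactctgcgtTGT
Pieces that begin within or just after the anticodon, and lack the 5′ part, came from AsnGTT and AspGTC:
tRF-25-U1O0789NLJ: taaccgaaaggttggtggttcgagc
tRF-40-U1O0789NLJK1JKE1: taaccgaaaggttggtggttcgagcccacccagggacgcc
tRF-40-2VR008R959KUMKF6: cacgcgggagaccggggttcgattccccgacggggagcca

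By fragment type, SCG held more 5'-tRFs and TG more i-tRFs and 3'-half fragments. As shares of a library's tRF counts, 5'-tRFs were 15.3% ± 2.4 in TG and 26.9% ± 8.91 in SCG (two-sided permutation test, adjusted p = 0.0002), and i-tRFs 4.7% ± 1.59 in TG and 2.54% ± 0.955 in SCG (permutation test, adjusted p = 0.0016). The 3'-half share was 0.766% ± 0.262 in TG and 0.181% ± 0.0835 in SCG (permutation test, adjusted p = 0.0001), with a lowest, median and highest of 0.382, 0.851 and 1.13% in TG and 0.069, 0.152 and 0.372% in SCG. Every TG library lay above every SCG library for this share. The 5'-half share was 73.7% ± 4.34 in TG and 66.2% ± 8.74 in SCG (permutation test, adjusted p = 0.0183), and the 3'-tRF share 5.53% ± 2.13 in TG and 4.13% ± 1.61 in SCG (permutation test, adjusted p = 0.0832). Single 3'-half, i-tRF and 5'-tRF fragments showed the same split. They are parts of the same counts and many are length variants of each other, so they are no independent support. Of 17 tested 3'-half fragments, 13 were higher in TG and 1 in SCG. Of 100 i-tRFs, 40 were higher in TG and 4 in SCG, and of 80 5'-tRFs, 12 and 32. Over all tested tRFs, 28% were higher in TG and 21.2% in SCG. The other types showed no such split in single fragments, with 23 and 24 of 76 for 5'-half fragments and 11 and 14 of 80 for 3'-tRFs. With no scaling factor, 15 and 0 of the 3'-half fragments, 60 and 2 of the i-tRFs, 19 and 21 of the 5'-tRFs, 28 and 16 of the 5'-half fragments and 26 and 1 of the 3'-tRFs were called in TG and SCG.

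The named fragments higher in TG with the largest difference came from the 3′ side of AsnGTT. The i-tRF tRF-25-U1O0789NLJ had a lowest, median and highest tRF CPM of 776, 1074 and 1429 in TG and 9.65, 50 and 131 in SCG (log2 fold change 4.45 ± 0.29, adjusted p = 5.33e-12). The 3'-half tRF-40-U1O0789NLJK1JKE1, which shares its first 25 bases and was named after its values were seen, had 455, 715 and 1174 in TG and 0, 21.4 and 89.3 in SCG (log2 fold change 4.78 ± 0.35, adjusted p = 4.33e-11). The AspGTC 3'-half tRF-40-2VR008R959KUMKF6, named likewise, had 549, 724 and 1101 in TG and 50, 119.6 and 235 in SCG (log2 fold change 2.63 ± 0.22, adjusted p = 2.95e-10). None of the 3 overlapped between ganglia.

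Among fragments from the 5′ end, the direction of the difference varied between fragments of different length. It also varied at equal length: tRF-33-PW5SVP9N15WV0E and tRF-33-6SXMSL73VL4YDN, both of HisGTG, went in opposite directions. Of HisGTG, fragments that differ by 1 base went in opposite directions. The 34-base tRF-34-6SXMSL73VL4YHE had 24050.1, 40062 and 113118 tRF CPM in TG and 8451, 15206 and 22447 in SCG (log2 fold change 1.51 ± 0.25, adjusted p = 1.67e-05). The 35-base tRF-35-6SXMSL73VL4YMY had 6597, 10318 and 30875 in TG and 31740.5, 58044 and 89524 in SCG (log2 fold change -2.17 ± 0.26, adjusted p = 1.72e-07). Neither overlapped between ganglia. The 36-base tRF-36-6SXMSL73VL4YMYE was higher in TG (log2 fold change 1.40 ± 0.23, adjusted p = 2e-05), and the 31-base tRF-31-6SXMSL73VL4YD in SCG (log2 fold change -2.13 ± 0.46, adjusted p = 0.000419). Further HisGTG fragments higher in TG were tRF-33-PW5SVP9N15WV0E (1.87 ± 0.26 at an adjusted p of 2.02e-06) and tRF-34-XSXMSL73VL4YHE (1.81 ± 0.24 at an adjusted p of 7.5e-07), and those higher in SCG tRF-32-6SXMSL73VL4YK (-1.46 ± 0.32 at an adjusted p of 0.000393) and tRF-33-6SXMSL73VL4YDN (-1.15 ± 0.22 at an adjusted p of 7.65e-05).

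In GluTTC, the named fragments of 36 and of 31 bases went in opposite directions. The GluTTC fragment of 36 bases, tRF-36-86J8WPMN1E8Y7ZD, was higher in TG (2.31 ± 0.35 at an adjusted p of 5.77e-06), and those of 31 bases, tRF-31-86J8WPMN1E8Y0 and tRF-31-86V8WPMN1E8Y0, were higher in SCG (-2.39 ± 0.39 at an adjusted p of 1.46e-05 and -2.43 ± 0.41 at an adjusted p of 2.55e-05). Short fragments of LysCTT (tRF-31-PSQP4PW3FJI0B, -2.11 ± 0.30 at an adjusted p of 2.57e-06), GlyGCC (tRF-30-P4R8YP9LON4V, -1.95 ± 0.32 at an adjusted p of 1.67e-05; tRF-31-P4R8YP9LON4VD, -1.27 ± 0.29 at an adjusted p of 0.000637) and GlnCTG (tRF-30-R9J89O9NF5W8, -2.19 ± 0.39 at an adjusted p of 4.6e-05) were higher in SCG. The 33-base LysCTT fragment tRF-33-PSQP4PW3FJI0W was not called (0.02 ± 0.33 at an adjusted p of 0.966) other than with no scaling factor (0.62, adjusted p = 0.0284). A 33-base 5'-half of ProCGG was higher in TG (1.53 ± 0.26 at an adjusted p of 2.93e-05).

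The share of each length within the 5′ fragments of 1 parent does not depend on the scaling, and was examined after the single fragments had been seen. The mean length in LysCTT was 32.80 ± 0.15 bases in TG and 32.18 ± 0.41 in SCG (adjusted p = 0.000283). The mean length in GlyGCC was 32.02 ± 0.40 bases in TG and 31.36 ± 0.31 in SCG (adjusted p = 0.000283). In GluTTC it was 32.34 ± 0.49 bases in TG and 31.44 ± 0.69 in SCG (adjusted p = 0.0025). In HisGTG it was 33.59 ± 0.08 bases in TG and 33.52 ± 0.37 in SCG (adjusted p = 0.553) (two-sided permutation tests over 12 and 12 libraries, adjusted over 5 parents, 4 of them given here). These p values rest on the libraries in which the single fragments were seen to differ and are no independent support. Without the 6 libraries the GluTTC difference was 0.66 bases and was not called. The shares of single lengths are a description of the same fragments. They pool all 5′ fragments of a length from a parent, whose sequences can differ. In HisGTG, those of 34 bases held 46.7% ± 9.24 of TG and 12% ± 3.13 of SCG counts (28.8% to 56.9% in TG and 8.32% to 17.6% in SCG), and those of 35 bases 14.7% ± 6.09 of TG and 39.7% ± 9.32 of SCG. In GlyGCC, 32 bases held 30.2% ± 8.38 of TG and 6.06% ± 3.41 of SCG counts, ranging over 14.6% to 40.1% in TG and 2.33% to 13.5% in SCG. In GluTTC, 36 bases held 12.6% ± 4.15 of TG and 1.68% ± 1.03 of SCG, and in LysCTT, 31 bases 4.98% ± 1.33 of TG and 18.4% ± 7.13 of SCG, both without overlap. The GluTTC differences did not run steadily with length. Its fragments of 34 bases held 8.86% ± 4.87 of TG and 15.2% ± 8.29 of SCG, and those of 26 bases 2.93% ± 1.01 and 1.68% ± 0.782.

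**Figure D4:**
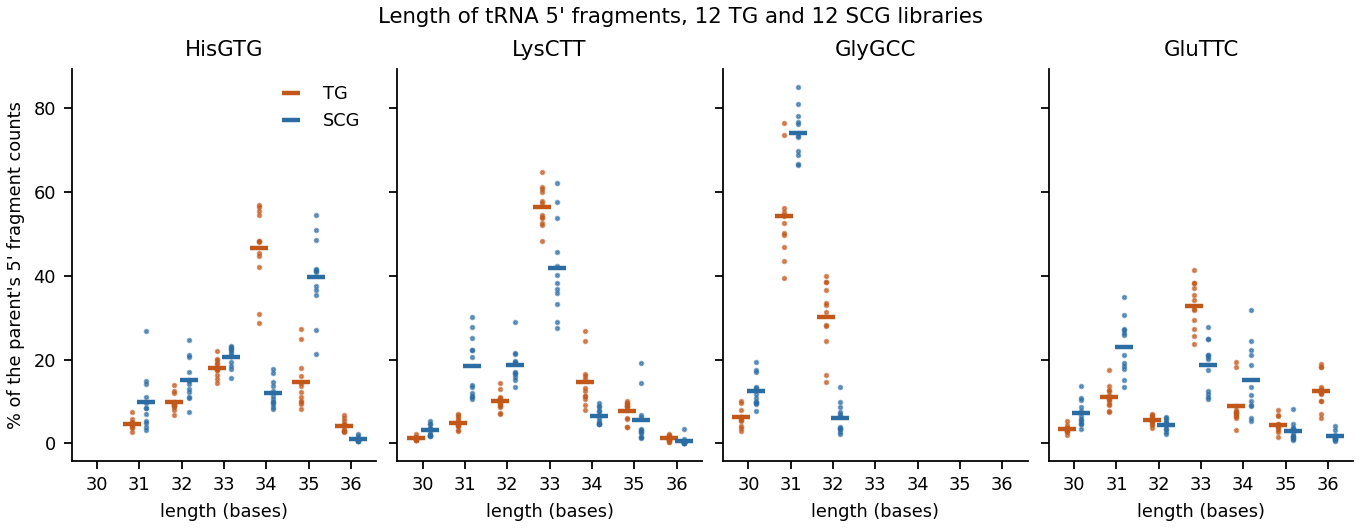
Share of the 5′ fragment counts of a parent tRNA (vertical axis, percent) at each length from 30 to 36 bases (horizontal axis) for 4 parents, 1 point a library, bars for the means of 12 TG and 12 SCG libraries; only lengths with a mean share of at least 1% in a ganglion are drawn. HisGTG fragments of 34 bases and GlyGCC fragments of 32 bases are higher in every TG library than in every SCG library.

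Summed by type and parent, 25 of 119 groups were higher in TG (21%) and 26 in SCG (21.8%). Of 9 groups among those with the most counts, the 5'-tRFs of LysCTT, GlyGCC, HisGTG and GluTTC were higher in SCG (-1.66, -1.52, -1.71 and -1.34). With no scaling factor they were at -1.02, -0.89, -0.99 and -0.60, and that of GluTTC was not called (edgeR, adjusted p = 0.0591). The 5'-half groups of GlyGCC, GluTTC and HisGTG were also higher in SCG (-0.89, -0.61 and -0.56), where those of GluTTC and HisGTG turned to 0.060 and 0.039 with no scaling factor, that of GlyGCC lost its call there (-0.38, adjusted p = 0.111), and those of GlyGCC and HisGTG were not called without the 6 libraries (-0.83 and -0.47). The call of HisGTG was also lost with no filter (-0.52, adjusted p = 0.109) and on leaving out any 1 of SCG replicates 1, 4, 5, 6, 7, 9, 11 or 12 or of TG replicates 1, 4, 5, 6, 7, 8, 10 or 11. The 5'-half group of LysCTT and the 3'-tRFs of AlaCGC and AlaTGC were not called (-0.22 and 0.17), although the latter were with no scaling factor (0.79, adjusted p = 0.00542). The groups given here do not make up the whole of the 5'-half share.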

How the data were processed

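Small RNA libraries had been made from 140 ng of total RNA of ganglia with a ligation-based kit, per the labels' protocols; the sequenced samples had a mean RNA integrity number of 8.3 (6.4 to 9.3). The authors deposited whole-number counts per mature miRNA and per tRF, not normalised. Per the submitters' processing notes, FastQC 0.11.9 and genome build GRCm39 were used; the aligner and counter are not named by these notes.

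The 12 TG and 12 SCG saline libraries were grouped from the labels. Features passing edgeR's expression filter by ganglion (minimum count 10) were tested with edgeR 4.0.16 (R 4.3.3), using its quasi-likelihood test, TMM factors, a robust dispersion and the design time + sex + ganglion, and with glmTreat for a difference beyond 2-fold. P values were adjusted by Benjamini-Hochberg over all features tested, and called under 0.05. Log2 fold changes are given ± SE, CPM ± SD (n = 12 each). Arm ratios were tested with limma 3.58.1, shares with 100000 permutations, two-sided. Simulated counts with known changes were used to check the fit: of miRNAs changed by 1 on the log2 scale, 90% were called, of tRFs 74%. Of 1978 miRNA names, 1679 were matched to RefSeq (GRCm38.p6) for seeds and neighbours. Replicates came from different mice, and p values measure the spread between them; no pair of libraries of 1 ganglion was identical, and chi-square per degree of freedom was 16.4 or more in each pair. No per-sample column of the tables was left unmapped.

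Named features follow a rule: the 12 largest differences each way past 2-fold at 100 CPM or more, the 10 most abundant in each ganglion, up to 4 abundant members of each of 27 lists, and the like for tRFs (largest at 1000 tRF CPM or more), seeds, arm ratios, tRF groups and interactions; exceptions are stated, and some named tRFs and tRF groups are not reported here. Members and lists were chosen with earlier results of these data known. Alternatives were other scalings, DESeq2 1.42.0, time as the sole covariate, no filter, single times, each library left out, all 48 libraries, and 6 libraries left out.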

Additional observations from a re-analysis of the deposited data

Results flagged for a closer look

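The difference between ganglia in miR-129-2-3p differed between times by the interaction test of edgeR (adjusted p = 0.0264). Relative to 4 h, the log2 difference between TG and SCG was 2.05 higher at 7 d and lower by 0.19 at 24 h (-0.19). The 3 highest TG values belonged to the 7 d libraries that also held the most miR-9-5p and miR-128-3p, and the part of this in the result was not tested. Without the 6 libraries the log2 difference between TG and SCG was 0.92 higher at 7 d than at 4 h. That refit holds replicate 11 as the sole TG library at 7 d, so it cannot decide whether the difference varies with time. The call of miR-129-2-3p was lost on leaving out any 1 of SCG replicates 4, 5, 6, 9 or 12 or of TG replicates 1, 2, 5, 6 or 10.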

How the results depend on the processing

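No paired analysis was possible because the labels do not say which TG and SCG libraries came from the same mouse, and replicate numbers only follow the order of the samples.

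At 24 h alone, the number called was 20 for miRNAs beyond 2-fold higher in TG, 20 for tRFs higher in SCG, 14 for tRFs beyond 2-fold higher in TG, 0 for tRFs beyond 2-fold higher in SCG, 8 for tRF groups higher in TG, 1 for tRF groups higher in SCG, 9 for arm ratios higher in TG, 19 for arm ratios higher in SCG. At 24 h alone, TG minus SCG was 9.87 for 5'-half share (percentage points), -12.9 for 5'-tRF share (percentage points), 1.48 for i-tRF share (percentage points), 0.47 for 3'-half share (percentage points), -0.85 for the log2 tRF to miRNA ratio, 0.64 for LysCTT 5' fragments mean length (bases), 0.70 for GlyGCC 5' fragments mean length (bases), 0.81 for GluTTC 5' fragments mean length (bases), not past the threshold. At 7 d alone, the number called was 97 for miRNAs higher in TG, 106 for miRNAs higher in SCG, 61 for tRFs higher in TG, 26 for tRFs beyond 2-fold higher in TG, 14 for tRFs beyond 2-fold higher in SCG, 69 for seed families higher in TG, 75 for seed families higher in SCG, 13 for tRF groups higher in TG, 9 for tRF groups higher in SCG, 2 for arm ratios higher in TG, 2 for arm ratios higher in SCG. At 7 d alone, TG minus SCG was 2.16 for 5'-half share (percentage points), -6.54 for 5'-tRF share (percentage points), 2.44 for i-tRF share (percentage points), 0.63 for 3'-half share (percentage points), -0.83 for the log2 tRF to miRNA ratio, -0.12 for HisGTG 5' fragments mean length (bases), 0.44 for GlyGCC 5' fragments mean length (bases), not past the threshold. With no filter, the number called was 203 for tRFs higher in TG, 166 for tRFs higher in SCG, 90 for tRFs beyond 2-fold higher in TG, 38 for tRFs beyond 2-fold higher in SCG, 57 for interactions of ganglion with time for miRNAs, 41 for interactions of ganglion with sex for miRNAs, 1 for interactions of ganglion with time for tRFs, 3 for interactions of ganglion with sex for tRFs. With no scaling factor, the number called was 40 for tRFs higher in SCG, 11 for tRFs beyond 2-fold higher in SCG, 50 for tRF groups higher in TG, 7 for tRF groups higher in SCG. At 4 h alone, the number called was 44 for tRFs higher in TG, 44 for tRFs higher in SCG, 20 for tRFs beyond 2-fold higher in TG, 11 for tRFs beyond 2-fold higher in SCG, 14 for tRF groups higher in TG, 12 for tRF groups higher in SCG, 7 for arm ratios higher in TG, 5 for arm ratios higher in SCG. At 4 h alone, TG minus SCG was 10.3 for 5'-half share (percentage points), -15.3 for 5'-tRF share (percentage points), 2.57 for i-tRF share (percentage points), 0.66 for 3'-half share (percentage points), 0.38 for LysCTT 5' fragments mean length (bases), 0.84 for GlyGCC 5' fragments mean length (bases), 0.57 for GluTTC 5' fragments mean length (bases), not past the threshold. Without the 6 libraries, the number called was 2 for interactions of ganglion with sex for miRNAs. Interactions with time are not counted for that refit, which holds replicate 11 as the sole TG library at 7 d. Without the 6 libraries, TG minus SCG was 0.66 for GluTTC 5' fragments mean length (bases), not past the threshold. With both arms at 20 CPM or more, the number called was 13 for arm ratios higher in TG, 19 for arm ratios higher in SCG. By medians, TG minus SCG was 5.82 for 5'-half share (percentage points), not past the threshold. With 4 against 4 libraries the smallest exact two-sided permutation p is 0.0286. The cause of these moves was not tested; single times and no filter also change how many libraries or features are tested. With each library left out in turn, the values ran from 155 to 166 for miRNAs higher in TG, from 164 to 175 for miRNAs higher in SCG, from 28 to 37 for miRNAs beyond 2-fold higher in TG, from 45 to 51 for miRNAs beyond 2-fold higher in SCG, from 81 to 106 for tRFs higher in TG, from 74 to 91 for tRFs higher in SCG, from 37 to 55 for tRFs beyond 2-fold higher in TG, from 20 to 30 for tRFs beyond 2-fold higher in SCG, from 113 to 128 for seed families higher in TG, from 120 to 137 for seed families higher in SCG, from 24 to 30 for tRF groups higher in TG, from 24 to 29 for tRF groups higher in SCG, from 0 to 41 for interactions of ganglion with time for miRNAs, from 0 to 6 for interactions of ganglion with sex for miRNAs, from 0 to 0 for interactions of ganglion with time for tRFs, from 0 to 0 for interactions of ganglion with sex for tRFs, from 19 to 23 for arm ratios higher in TG, from 29 to 34 for arm ratios higher in SCG, from 6.12 to 8.70 for 5'-half share (percentage points), from -12.6 to -10.3 for 5'-tRF share (percentage points), from 1.96 to 2.39 for i-tRF share (percentage points), from 1.12 to 1.71 for 3'-tRF share (percentage points), from 0.55 to 0.62 for 3'-half share (percentage points), from -1.09 to -0.88 for the log2 tRF to miRNA ratio, from -0.0076 to 0.12 for HisGTG 5' fragments mean length (bases), from 0.57 to 0.70 for LysCTT 5' fragments mean length (bases), from 0.59 to 0.72 for GlyGCC 5' fragments mean length (bases), from 0.81 to 1.02 for GluTTC 5' fragments mean length (bases); the 41 interactions with time arose without TG replicate 11. Without TG replicate 11, TG at 7 d is represented by replicates 5, 6 and 12 alone, which are among the 6 libraries that stood apart. Of 153 named results, the following changed sign. All of these but the miRNA miR-129-2-3p, the seed GAGGUAG and the 5'-half groups of HisGTG and GluTTC were not called in the 24 libraries. With DESeq2 size factors, the log2 fold change was 0.0068 for miR-29c-5p, -0.076 for tRF-33-PSQP4PW3FJI0W. With no filter, the log2 fold change was 0.029 for miR-434-5p, 0.022 for miR-125a-5p, 0.087 for miR-29c-5p, 0.044 for miR-221-5p, 0.022 for miR-142a-5p, -0.0064 for tRF-33-PSQP4PW3FJI0W. With no scaling factor, the log2 fold change was -0.066 for miR-132-3p, -0.018 for miR-92a-3p, -0.026 for miR-29a-3p, -0.0038 for GAGGUAG, 0.039 for 5'-half HisGTG, 0.47 for 5'-half LysCTT, 0.060 for 5'-half GluTTC. At 4 h alone, the log2 fold change was -1.08 for miR-132-3p, 0.14 for miR-434-5p, 0.15 for miR-125a-5p, -2.88 for miR-206-3p, -0.80 for miR-133b-3p, -0.51 for miR-375-3p, -0.11 for miR-122-5p, -0.17 for tRF-33-PSQP4PW3FJI0W. At 24 h alone, the log2 fold change was -0.22 for miR-132-3p, 0.026 for miR-125a-5p, 0.18 for miR-29b-3p, 0.029 for miR-29c-5p, 0.19 for miR-221-5p, 0.10 for miR-142a-5p, 0.16 for miR-199b-3p, 0.16 for miR-199a-3p, -0.085 for tRF-33-PSQP4PW3FJI0W. At 7 d alone, the log2 fold change was 0.74 for miR-132-5p, 0.49 for miR-212-5p, -0.15 for miR-92a-3p, 0.21 for miR-29c-5p, 0.18 for miR-221-3p, 0.10 for miR-221-5p, -0.24 for miR-219a-1-3p, 0.31 for miR-342-3p, 0.79 for miR-129-2-3p, 0.22 for 5'-half LysCTT, -0.057 for 3'-tRF AlaCGC/AlaTGC. Without the 6 libraries, the log2 fold change was -0.48 for miR-132-3p, 0.034 for miR-29b-3p, 0.035 for miR-29c-5p, 0.075 for miR-142a-5p, -0.062 for tRF-33-PSQP4PW3FJI0W. With the DESeq2 test, the log2 fold change was -0.076 for tRF-33-PSQP4PW3FJI0W. In the fit over all 48 libraries, the log2 fold change was 0.011 for miR-29c-5p, -0.047 for tRF-33-PSQP4PW3FJI0W. With single libraries left out, it ran from -0.20 to 0.16 for miR-132-3p, from -0.16 to 0.00070 for miR-221-5p, from -0.0040 to 0.96 for miR-375-3p, from -0.14 to 0.33 for tRF-33-PSQP4PW3FJI0W, from -0.30 to 0.063 for 5'-half LysCTT. Over all named results and the alternatives other than single libraries, 1287 values kept direction and call, 121 lost the call, 32 gained one and 51 changed sign; with single libraries left out these numbers were 3588, 65, 17 and 26. tRF counts per library limit the single fragments, and directions of small tRF differences hold only relative to the scaling.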
